A study of Mus musculus with 12 samples.

Results

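ATF4 is the transcription factor through which cells answer a shortage of amino acids or a fault in protein folding. The 36 genes described here are Atf4, its partners and stress targets, the enzymes that build asparagine, serine, glycine, proline and cysteine and charge folate with one-carbon units, and transporters that bring amino acids into the cell. They were chosen by symbol, and all 36 were among the 17203 genes of the deposited expression table. By role they were divided into 12 stress factors and regulators, 16 synthesis enzymes and 8 amino acid transporters. RNA had been sequenced from primary CD4+ T cells of C57BL/6 mice in 4 groups of 3 libraries. Unstimulated cells were taken directly after isolation, CD3 cells had 72 h on plate-bound anti-CD3, and CD3_CD28 cells had 72 h of plate-bound anti-CD3 with soluble anti-CD28. CD3_CD28_ICOS cells had 72 h of anti-CD3, anti-CD28 and anti-ICOS, all in soluble form by their labels. Against CD3_CD28, anti-ICOS was therefore added and anti-CD3 was no longer bound to the plate. Primary T cells of the series were kept in RPMI-1640 with 10% FBS. Time in culture and stimulation cannot be told apart against Unstimulated cells, because no group was cultured without antibody. The design text mentions transduced cells, which no sample label does. Nothing in the labels says whether the 3 libraries of a group had different source animals or cultures, and the p-values reflect the spread among them, possibly only technical.

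As background, kinases that phosphorylate the initiation factor eIF2 slow most translation while allowing more ATF4 protein to be made, so Atf4 mRNA is only part of the control of this pathway. ATF4 binds, often with C/EBP family partners, to a composite element in genes for amino acid supply and stress. Serine made from a glycolytic intermediate by Phgdh, Psat1 and Psph gives its one-carbon unit to folate through Shmt1 in the cytosol or Shmt2 in mitochondria. Activated T cells use these units for purines, thymidylate and methylation while they multiply.

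The ATF4 element was visible in the promoters of some of these genes, and stretches of 7 are shown because they place the element in genes described below, from the stress gene Chac1 to the cystine importer Slc7a11. RefSeq promoter windows of GRCm38.p6, from 250 bases before to 50 after the gene start, matched 30 of the 36 genes. On either strand, the motif TGATGNAA occurred in 9 of those 30 genes, against 4.51% of all 27025 genes with a window. The 9 were Asns, Chac1, Got1, Nupr1, Pycr1, Slc1a4, Slc7a11, Trib3 and Vldlr. Since the list was drawn up around the ATF4 response, that count is a description and no independent evidence. The stretches are written 5′ to 3′ on the gene's strand, with the motif or its reverse complement in capitals, and are those whose match lies wholly before the RefSeq start.
Asns, chr6:7693215-7693242, minus strand: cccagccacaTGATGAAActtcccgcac
Chac1, chr2:119351029-119351076, plus strand: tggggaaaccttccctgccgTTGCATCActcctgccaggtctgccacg
Got1, chr19:43524680-43524727, minus strand: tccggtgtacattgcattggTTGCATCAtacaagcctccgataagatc
Nupr1, chr7:126625563-126625590, minus strand: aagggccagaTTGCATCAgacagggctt
Pycr1, chr11:120643824-120643871, minus strand: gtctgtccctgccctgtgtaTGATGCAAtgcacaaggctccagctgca
Slc7a11, chr3:50443633-50443699, minus strand, with 2 matches: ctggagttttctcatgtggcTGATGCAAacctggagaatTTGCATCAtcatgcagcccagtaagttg
Vldlr, chr19:27216800-27216847, plus strand: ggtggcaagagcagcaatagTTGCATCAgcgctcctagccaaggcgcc
In the GENCODE annotation, whose gene limits are given below, 3 of these matches lie after the start of the gene. In Asns, by 22 bases, and in Nupr1, by 5281, the match or its flanking bases overlap an annotated UTR. In Vldlr, by 336 bases, they overlap an exon of a retained-intron transcript. The other 4 lie before the start there too. A match says only that these letters occur there, and its absence from a window says nothing about ATF4.

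Levels are in CPM, reads per 1e6 reads assigned to genes, with no correction for gene length, so a gene is compared with itself across groups and not with another gene. Estimated depth, in units of 1e6 reads, ran from 22.5 up to 27.5 for Unstimulated, from 11.4 up to 26.5 for CD3, from 22.3 up to 25.5 for CD3_CD28 and from 26.7 up to 37.5 for CD3_CD28_ICOS libraries. The 8 T cell markers were above 0 in all 12 libraries, with summed levels of 3160 to 6105 CPM. B cell markers, 8 of 8 listed, summed to between 129 and 227 CPM in Unstimulated, 365 and 787 in CD3, 7.92 and 11.8 in CD3_CD28, and 257 and 707 in CD3_CD28_ICOS libraries. The CD3_CD28 group was thus lowest in them, and Blk was at 0 in 2 of its libraries. The 10 myeloid markers ran from 204 to 513 CPM in Unstimulated and from 15.8 to 75.4 CPM in the stimulated libraries, with Lyz2 and S100a8 at 0 in all 3 CD3_CD28 libraries. The 17 pancreatic acinar genes summed to 523 to 2674 CPM in Unstimulated and to at most 1.93 CPM in stimulated libraries. The 6 CD8 and NK cell markers summed to 46.5 to 162 CPM over all libraries. The 8 erythroid and platelet markers summed to 107 to 196 CPM in Unstimulated and to at most 4.75 CPM in stimulated libraries. CD3_CD28 replicate 1 gave 11.8% of its reads to 1 ribosomal RNA gene, against 1.26 to 3.20% elsewhere, which lowers its other CPM values. The part of these cell mixtures in the results below was not tested. In bulk RNA, fewer cells of a type and less RNA per cell cannot be told apart.

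The main pattern was a peak in the CD3_CD28 group. Below, a change with anti-CD3 is CD3 against Unstimulated, which includes the time in culture, and a change with anti-CD28 is CD3_CD28 against CD3. CD3_CD28_ICOS cells also had anti-CD28, so the peak is not one of all cells given that antibody. In 32 of the 36 genes the mean was highest in CD3_CD28, as in 19.9% of all 17203 genes. In 27 of them all 3 CD3_CD28 libraries lay above the other 9, as in 10.4% of all genes. The 4 exceptions, highest in CD3, were the cytosolic folate enzymes Shmt1 and Mthfd1 and the glutamine carriers Slc1a5 and Slc38a1. Of the 33 genes that were tested, as described next, 24 had their lowest mean in Unstimulated, 8 in CD3_CD28_ICOS and 1, Ddit3, in CD3, when these groups were lowest for 37.5%, 12.9% and 11.1% of all tested genes.

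Changes were tested with limma on log2(CPM + 1) over the 9826 genes with at least 10 CPM in 3 or more libraries, and a gene is called at a Benjamini-Hochberg adjusted p under 0.05. Fold changes on this scale understate those of low genes. The filter passed 33 of the 36 genes and left out Nupr1, Cbs and Slc7a11. Atf5, Trib3, Chac1, Cebpb, Aldh1l2, Pycr1 and Cth passed only through CD3_CD28, where they were high, so that group had to differ for these 7. For them the differences from CD3_CD28 are given without a p-value. Counts over the tested genes are given as description, and for comparisons with CD3_CD28 also without these 7. In the F test, whose outcome the filter favoured for these 7, 32 of the 33 differed among the 3 stimulated groups, as did 80.7% of all tested genes. The exception was Slc38a2, at an adjusted p of 0.0504.

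**Figure D1:**
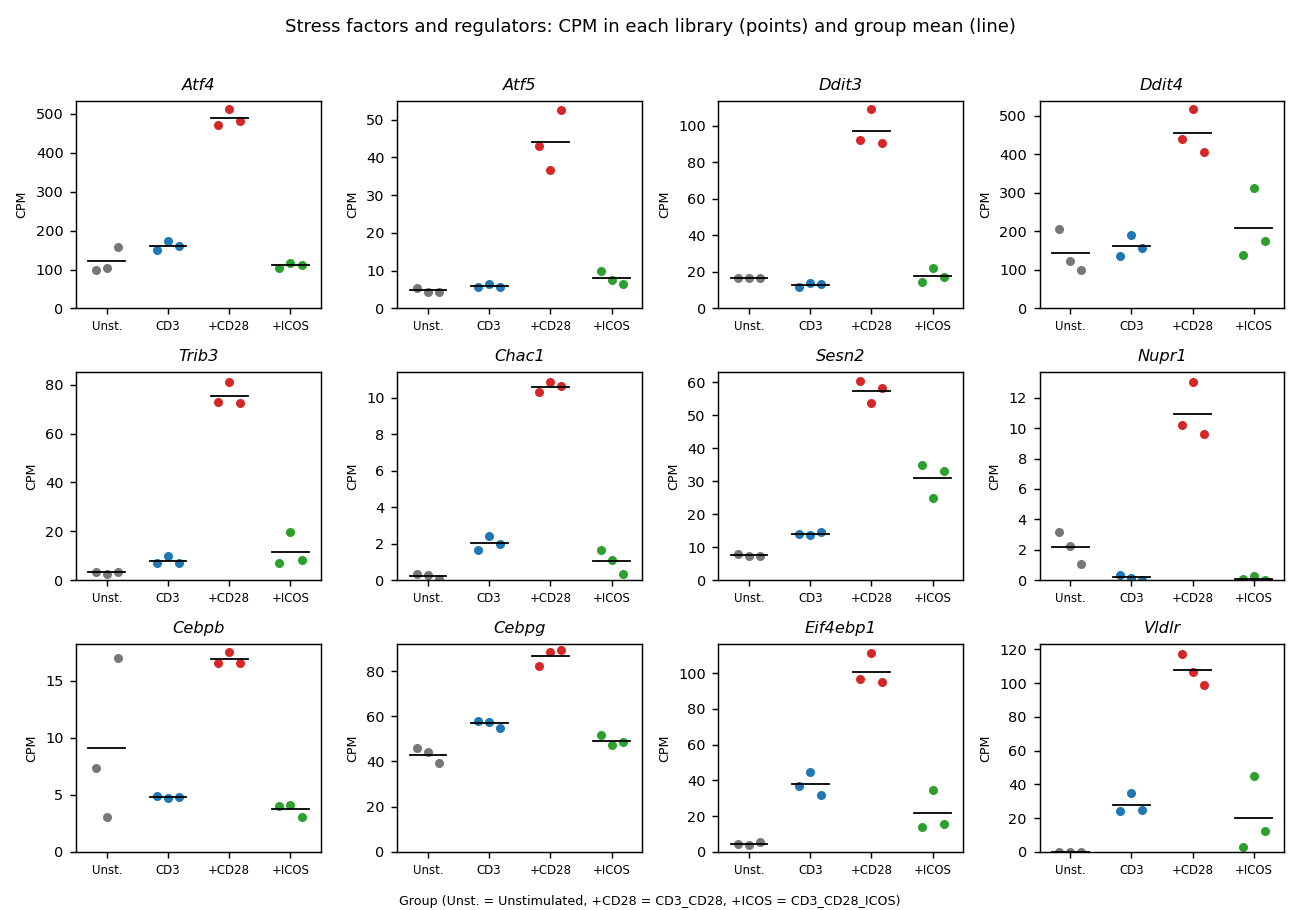
Stress factors and regulators. Each point is the CPM of 1 library, with replicates 1 to 3 from left to right, and the line is the mean of the 3 libraries of a group. The 3 CD3_CD28 points lie above the other 9 for every gene except Cebpb, where 1 Unstimulated library reaches 17.0 CPM.

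Among the stress factors, Atf4 itself (chr15:80255184-80257541, plus strand) stood at 99.9, 105 and 158 CPM in Unstimulated and at 150.2, 173 and 159 CPM in CD3 libraries. It reached 471, 513 and 481 CPM in CD3_CD28 libraries and lay at 104, 118 and 111 CPM in CD3_CD28_ICOS libraries. The CD3_CD28 libraries were far above all others, and the other 3 groups lay close together. Atf4 rose by 1.60 ± 0.14 (log2 ± SE, n = 3 per group) from CD3 to CD3_CD28 (limma adjusted p = 1.06e-06) and was 2.13 log2 units lower in CD3_CD28_ICOS than in CD3_CD28 (adjusted p = 4.62e-08). Its rise from Unstimulated to CD3 was 0.44 ± 0.14 (adjusted p = 0.0118), with libraries that overlapped. That call was lost under quantile normalization (0.31, adjusted p = 0.0632), with median of ratios scaling (0.27, adjusted p = 0.144) and without Unstimulated replicate 1 (adjusted p = 0.0644) or replicate 2 (adjusted p = 0.0572).

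Ddit3 (chr10:127290774-127296288, plus strand) encodes CHOP, a factor induced by ATF4 that is tied to cell death under lasting stress. Ddit3 measured 16.8, 16.6 and 16.8 CPM in Unstimulated, 11.5, 14.0 and 13.3 in CD3, 92.3, 109 and 90.5 in CD3_CD28 and 14.3, 22.2 and 17.1 in CD3_CD28_ICOS libraries. The CD3_CD28 mean was 7.51 times the CD3 mean, and the difference from CD3_CD28 to CD3_CD28_ICOS was -2.40 ± 0.14 in log2 (limma adjusted p = 2.09e-08). Unlike most of the list, Ddit3 fell from Unstimulated to CD3, by 0.35 (adjusted p = 0.0382). This small fall was not called without any 1 of the 3 Unstimulated libraries, CD3 replicate 1 or CD3 replicate 3 (adjusted p = 0.0604 to 0.137). The authors' deposited table gave it a false discovery rate of 0.474.

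Trib3 (chr2:152337422-152344032, minus strand), a pseudokinase that restrains ATF4 and CHOP activity, and Atf5, a related bZIP factor, were also highest in CD3_CD28. For Trib3 the libraries read 3.42, 2.70 and 3.48 CPM in Unstimulated, 7.11, 9.87 and 6.86 in CD3, 72.8, 81.2 and 72.8 in CD3_CD28 and 7.09, 19.6 and 8.08 in CD3_CD28_ICOS. The CD3_CD28 mean of Trib3 was 9.52 times that of CD3, a log2 difference of 3.11 ± 0.28 (SE). Atf5 lay between 4.47 and 5.33 CPM in Unstimulated, 5.62 and 6.38 in CD3, 36.7 and 52.7 in CD3_CD28, and 6.60 and 10.0 in CD3_CD28_ICOS libraries. The difference for Atf5 was 2.69 ± 0.17, and its value of 0.27 from Unstimulated to CD3 was not called (limma adjusted p = 0.161). Under quantile normalization that Atf5 value was -0.74 and called as a fall (adjusted p = 0.00265). Trib3 was called higher in CD3 than in Unstimulated as deposited (1.08, adjusted p = 0.0036), but not under quantile normalization (-0.0039, adjusted p = 0.992).

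Chac1, which degrades glutathione, and Nupr1, a small stress-induced chromatin protein, were low outside CD3_CD28. Chac1 held 10.3, 10.9 and 10.7 CPM there, and at most 2.43 CPM in the other 9 libraries. It was called higher in CD3 than in Unstimulated (1.28 ± 0.28, limma adjusted p = 0.000913), a call lost under quantile normalization (0.43, adjusted p = 0.206). Nupr1 measured 3.20, 2.26 and 1.04 CPM in Unstimulated, at most 0.351 CPM in CD3, 10.2, 13.0 and 9.61 CPM in CD3_CD28 and at most 0.262 CPM in CD3_CD28_ICOS libraries. Thus, Nupr1 read higher in every Unstimulated library than in any CD3 library. It was not tested here, and the authors' deposited table gave it a false discovery rate of 2.55e-05 for CD3_CD28 against CD3 and of 0.0142 for CD3 against Unstimulated. For CD3_CD28 against Unstimulated that rate was 0.111. The Unstimulated libraries also had the highest acinar, myeloid, and erythroid and platelet sums, whose part was not tested.

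Sesn2, a leucine sensor that restrains mTORC1, was highest in CD3_CD28 and second highest in CD3_CD28_ICOS. Its libraries read 7.99, 7.47 and 7.21 CPM in Unstimulated, 14.1, 13.6 and 14.5 in CD3, 60.4, 53.8 and 58.4 in CD3_CD28 and 34.9, 24.9 and 33.1 in CD3_CD28_ICOS. No libraries of any 2 groups overlapped. Sesn2 and Ddit3 were the 2 genes called higher in CD3_CD28_ICOS than in CD3, by 1.07 ± 0.12 (limma adjusted p = 2.19e-05) and 0.42 ± 0.14 (adjusted p = 0.0247). Leaving out CD3_CD28_ICOS replicate 2 (adjusted p = 0.112), CD3_CD28_ICOS replicate 3 (adjusted p = 0.0507) or replicate 1 of CD3 (adjusted p = 0.0957) ended the Ddit3 call. So did a fit of the 2 groups alone (adjusted p = 0.0727). The authors' deposited table gave Ddit3 a false discovery rate of 0.588 there.

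Ddit4, another inhibitor of mTORC1, and Eif4ebp1, the repressor of cap-dependent translation that mTORC1 inactivates, also peaked in CD3_CD28. Ddit4 lay between 99.3 and 206 CPM in Unstimulated, 136 and 191 in CD3, 405 and 519 in CD3_CD28, and 139 and 312 in CD3_CD28_ICOS libraries. Eif4ebp1 had means of 4.59 ± 0.768, 37.8 ± 6.33, 101 ± 8.87 and 21.5 ± 11.4 CPM (SD, n = 3) in the same order of groups. It rose at both steps, by 2.79 ± 0.26 to CD3 (limma adjusted p = 8.26e-07) and by 1.40 ± 0.26 to CD3_CD28 (adjusted p = 0.000531). Vldlr (chr19:27216484-27254231, plus strand), a lipoprotein receptor gene activated by ATF4, was near 0 in fresh cells, at 0.178, 0.109 and 0 CPM. It reached 24.3, 35.0 and 24.8 CPM in CD3 and 117, 107 and 99.0 CPM in CD3_CD28 libraries. In CD3_CD28_ICOS it read 2.74, 45.0 and 12.3 CPM, so replicate 2 stood above all CD3 libraries and replicates 1 and 3 below them. The rise of Vldlr with anti-CD28 (1.92 ± 0.69, adjusted p = 0.0324) did not overlap between groups. Its call was lost without any 1 of the 6 CD3 and CD3_CD28 libraries, without Unstimulated replicate 1, or without CD3_CD28_ICOS replicate 3 (adjusted p = 0.05002 to 0.0873). With a pseudocount of 0.1 the call was lost as well (1.96, adjusted p = 0.0553).

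Cebpb and Cebpg encode C/EBP proteins that can pair with ATF4. Cebpg had 39.1 to 45.8, 54.9 to 57.9, 82.1 to 89.5 and 47.4 to 51.5 CPM in Unstimulated, CD3, CD3_CD28 and CD3_CD28_ICOS libraries, a smaller span than Atf4. Cebpb read 16.6, 17.5 and 16.6 CPM in CD3_CD28 and 3.07 to 4.86 CPM in the other stimulated libraries, but 7.32, 3.06 and 17.0 CPM in Unstimulated ones. The log2 difference between CD3_CD28 and Unstimulated was 1.08 ± 0.38, and 0.55 without Unstimulated replicate 2.

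**Figure D2:**
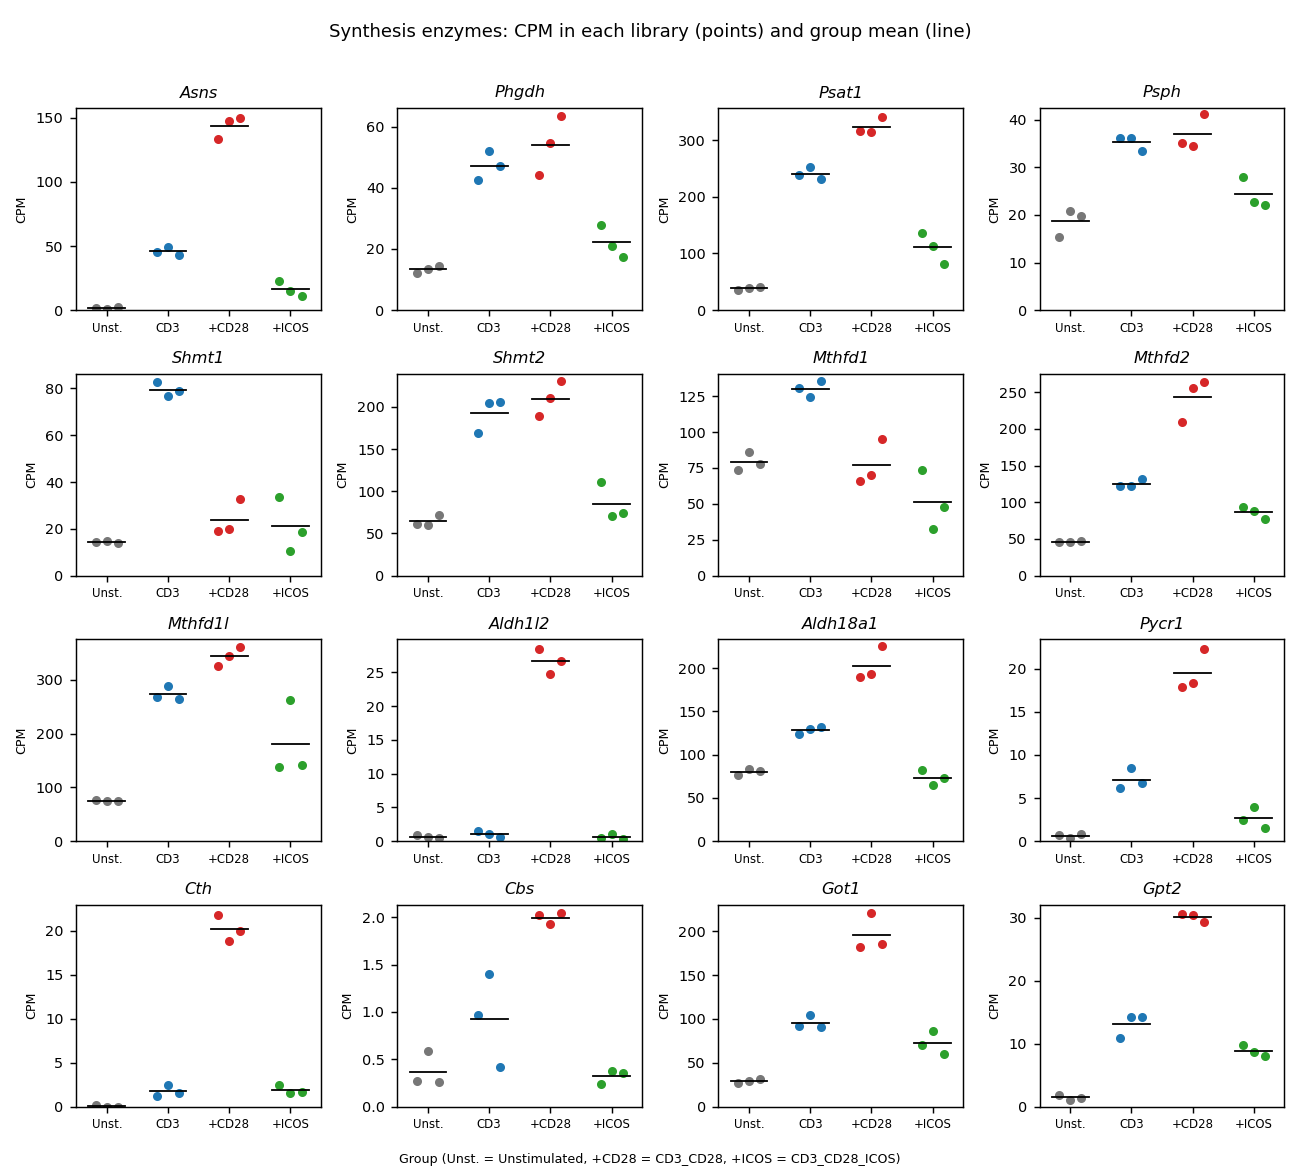
Synthesis enzymes. Each point is the CPM of 1 library, with replicates 1 to 3 from left to right, and the line is the group mean. Shmt1 and Mthfd1 are highest in CD3, Phgdh, Psph and Shmt2 are about level between CD3 and CD3_CD28, and Aldh1l2 and Cth are high in CD3_CD28 alone.

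Among the enzymes, those of serine synthesis rose from Unstimulated to CD3, and Asns, Aldh18a1, Got1, Gpt2 and the mitochondrial folate enzyme Mthfd2 rose there and again from CD3 to CD3_CD28. Asns (chr6:7675169-7693254, minus strand), which makes asparagine, measured 1.51, 0.729 and 2.13 CPM in Unstimulated, 45.1, 49.5 and 43.3 in CD3, 134, 148 and 150.0 in CD3_CD28 and 22.6, 14.8 and 11.04 in CD3_CD28_ICOS libraries. All 4 groups were separate, in the order CD3_CD28, CD3, CD3_CD28_ICOS, Unstimulated. Asns rose by 1.62 ± 0.23 with anti-CD28 (limma adjusted p = 6.32e-05) and was lower by 3.13 log2 units in CD3_CD28_ICOS than in CD3_CD28, a difference of -3.13 ± 0.23 (adjusted p = 1.76e-07).

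The serine pathway behaved differently. Psat1 (chr19:15904678-15947337, minus strand), its transaminase, read 34.8, 39.3 and 40.6 CPM in Unstimulated, 239, 252 and 232 in CD3, 315, 315 and 341 in CD3_CD28 and 136, 113 and 82.0 in CD3_CD28_ICOS libraries. Its main step was from Unstimulated to CD3, by 2.63 ± 0.14 (limma adjusted p = 1.94e-09), and the step to CD3_CD28 was 0.42 ± 0.14 (adjusted p = 0.017). Without CD3 replicate 3 this smaller step was not called (adjusted p = 0.0526), nor without CD3_CD28 replicate 3 (adjusted p = 0.0549). Phgdh, the first enzyme, had means of 13.4 ± 1.12, 47.3 ± 4.83, 54.2 ± 9.59 and 22.1 ± 5.35 CPM (SD, n = 3) in Unstimulated, CD3, CD3_CD28 and CD3_CD28_ICOS. Psph, the last, had 18.7 ± 2.85, 35.3 ± 1.60, 36.9 ± 3.67 and 24.3 ± 3.26 CPM. Neither passed the test between CD3 and CD3_CD28 (Phgdh 0.18, adjusted p = 0.339, and Psph 0.06, adjusted p = 0.699), whereas both fell from CD3_CD28 to CD3_CD28_ICOS, by 1.27 and 0.59. Phgdh passed that test after quantile normalization (0.39, adjusted p = 0.0464) and median of ratios scaling (0.39, adjusted p = 0.0371). A pseudogene copy of Phgdh is annotated in the mouse genome, so its reads may be shared and its level is uncertain.

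The enzymes that pass serine's one-carbon unit to folate were ordered differently across groups. Cytosolic Shmt1 (chr11:60788104-60811718, minus strand) measured 14.3, 15.01 and 13.8 CPM in Unstimulated, 82.6, 76.7 and 79.1 in CD3, 19.2, 19.7 and 32.7 in CD3_CD28 and 33.7, 10.7 and 18.7 in CD3_CD28_ICOS libraries. Only the CD3 libraries stood out, and the other 3 groups lay within 10.7 to 33.7 CPM. Shmt1 rose by 2.39 ± 0.31 to CD3 (limma adjusted p = 2.36e-05) and was lower in CD3_CD28 than in CD3, by -1.73 ± 0.31 (adjusted p = 0.000478). Mitochondrial Shmt2 (chr10:127517123-127522444, minus strand) read 61.7, 59.7 and 71.6 CPM in Unstimulated, 169.6, 204 and 206 in CD3, 189, 210.3 and 231 in CD3_CD28 and 111, 70.7 and 74.8 in CD3_CD28_ICOS libraries. CD3 and CD3_CD28 overlapped, with a difference of 0.12 ± 0.15 that was not called (adjusted p = 0.501).

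**Figure D3:**
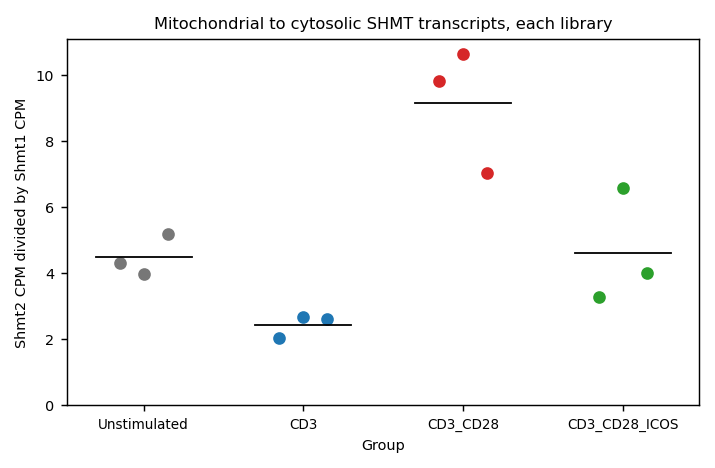
Shmt2 CPM divided by Shmt1 CPM in each library, with the group mean as a line. The ratio is 2.05 to 2.66 in CD3 and 7.04 to 10.7 in CD3_CD28 libraries, and the groups do not overlap.

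As a result, the ratio of Shmt2 to Shmt1 differed between CD3 and CD3_CD28. It was 4.32, 3.98 and 5.19 in Unstimulated, 2.05, 2.66 and 2.60 in CD3, 9.83, 10.7 and 7.04 in CD3_CD28 and 3.28, 6.59 and 4.01 in CD3_CD28_ICOS libraries. This ratio is set by gene length as well as by expression, so only its change across groups can be read. On the log2(CPM + 1) scale it was 1.85 higher in CD3_CD28 than in CD3, with p = 0.1 in an exact two-sided permutation test, the smallest that 3 against 3 libraries allow. Of the 6 pairs of groups, 5 had that same p, and CD3_CD28_ICOS against Unstimulated had a difference of -0.0031 and an exact permutation p = 1. No pair can pass 0.05 in this permutation test with 3 libraries per group, also before adjustment over the 6.

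Of the later folate enzymes, Mthfd1 fell and Mthfd2 rose with anti-CD28, and Mthfd1l was not called. Cytosolic Mthfd1, which carries 3 activities in 1 protein, had means of 79.1 ± 6.63, 130.3 ± 5.43, 77.1 ± 15.7 and 51.0 ± 20.7 CPM (SD, n = 3) in Unstimulated, CD3, CD3_CD28 and CD3_CD28_ICOS. It was lower in CD3_CD28 than in CD3 by -0.77 ± 0.23 (limma adjusted p = 0.0108). Its further fall of 0.64 to CD3_CD28_ICOS (adjusted p = 0.0261) overlapped between groups. That call was lost without CD3_CD28 replicate 3 (-0.49, adjusted p = 0.107), CD3_CD28_ICOS replicate 2 (-0.36, adjusted p = 0.0896) or CD3_CD28_ICOS replicate 3 (-0.63, adjusted p = 0.0649). A fit of the 2 groups alone lost it too (-0.64, adjusted p = 0.0815). Mitochondrial Mthfd2 (chr6:83305691-83325908, minus strand), which is scarce in most resting adult tissues, read 46.4, 46.3 and 46.7 CPM in Unstimulated, 122, 122 and 132 in CD3, 210.0, 256 and 264 in CD3_CD28 and 93.6, 88.6 and 76.8 in CD3_CD28_ICOS libraries. Its 4 groups did not overlap, and it rose at both steps, by 1.41 ± 0.10 (adjusted p = 2.65e-08) and 0.95 ± 0.10 (adjusted p = 4.67e-06). Mthfd1l, the mitochondrial formate maker, had 74.6 to 77, 264 to 289, 326 to 361 and 138 to 262 CPM in the same order of groups. Its difference of 0.33 between CD3_CD28 and CD3 was not called in the main fit (adjusted p = 0.136), though the 2 groups did not overlap. It was called in a fit of the 2 groups alone (0.33, adjusted p = 0.00533) and with median of ratios scaling (0.54, adjusted p = 0.0308). It was also called without CD3_CD28_ICOS replicate 2 (0.33, adjusted p = 0.0017), a library that enters only through the shared spread.

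Aldh1l2 (chr10:83487450-83534140, minus strand), which oxidises formyl-folate in mitochondria and makes NADPH, was high in CD3_CD28 alone. It measured 28.5, 24.7 and 26.7 CPM there and 0.248 to 1.44 CPM in the other 9 libraries. The log2 difference was 3.79 ± 0.26 (SE) against CD3 and -4.12 ± 0.26 for CD3_CD28_ICOS against CD3_CD28. Its value from Unstimulated to CD3 was 0.29 (limma adjusted p = 0.333) as deposited and not called, and -0.75 under quantile normalization, where it was called as a fall (adjusted p = 0.0152).

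Cth, which releases cysteine from cystathionine, held 21.8, 18.9 and 20.002 CPM in CD3_CD28 against 1.23 to 2.47 CPM in CD3 and 1.61 to 2.42 CPM in CD3_CD28_ICOS libraries, and was at 0 in 2 Unstimulated libraries. Cbs, the enzyme before it, was low throughout, at 2.02, 1.92 and 2.04 CPM in CD3_CD28 and 0.240 to 1.40 CPM elsewhere. All 3 CD3_CD28 libraries were the highest for Cbs too, but it was not tested here, and the authors' deposited table gave a false discovery rate of 0.785 for CD3_CD28 against CD3. Among proline enzymes, Aldh18a1 had means of 80.2 ± 3.41, 128 ± 4.35, 203 ± 19.7 and 73.6 ± 8.31 CPM (SD, n = 3) in Unstimulated, CD3, CD3_CD28 and CD3_CD28_ICOS. Pycr1, which completes proline, had 0.631 ± 0.203, 7.14 ± 1.25, 19.5 ± 2.42 and 2.66 ± 1.22 CPM. From CD3 to CD3_CD28, Aldh18a1 rose by 0.65 ± 0.10 (limma adjusted p = 7.06e-05), and the difference for Pycr1 was 1.34 ± 0.24. The transaminases Got1 and Gpt2, which exchange nitrogen with glutamate to make aspartate and alanine, went the same way. Got1 means were 29.5, 95.6, 196 and 72.3 CPM and Gpt2 means 1.48, 13.1, 30.1 and 8.81 CPM in that order of groups, with rises of 1.03 ± 0.13 (adjusted p = 1.55e-05) and 1.15 ± 0.15 (adjusted p = 2.68e-05) from CD3 to CD3_CD28. For Gpt2 the authors' deposited table gave a false discovery rate of 0.0601 in that comparison.

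**Figure D4:**
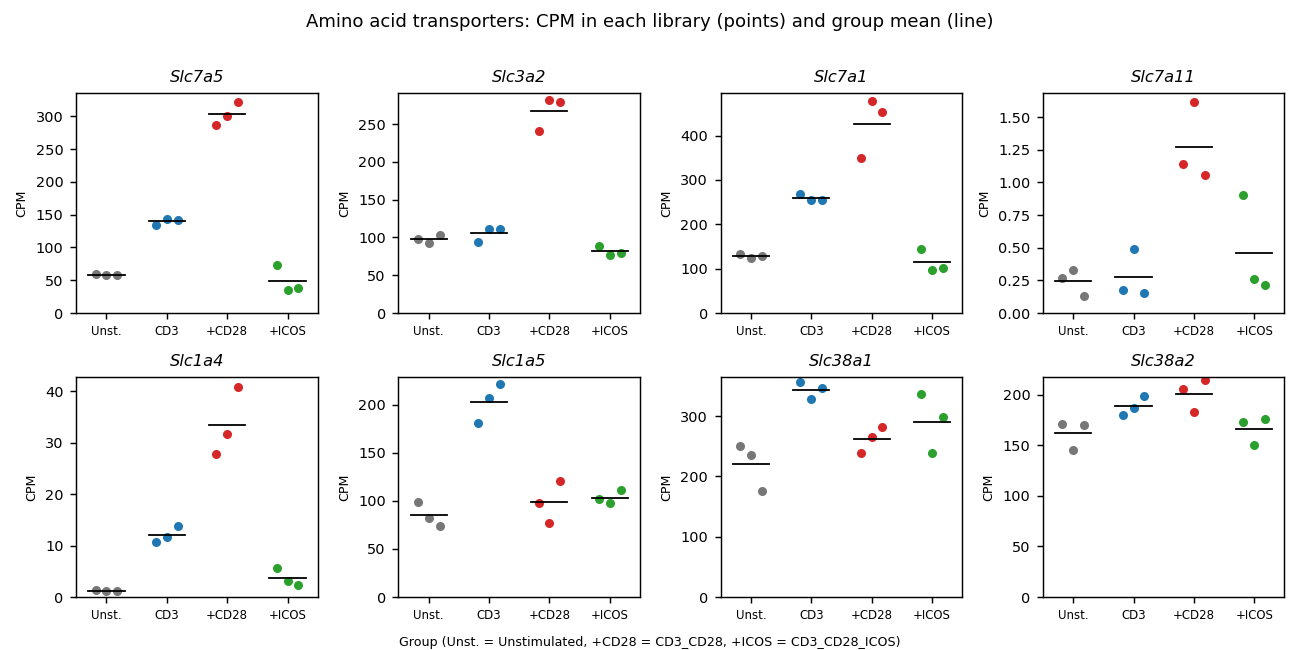
Amino acid transporters. Each point is the CPM of 1 library, with replicates 1 to 3 from left to right, and the line is the group mean. Slc7a5, Slc3a2, Slc7a1 and Slc1a4 are highest in CD3_CD28, while Slc1a5 and Slc38a1 are highest in CD3.

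Among transporters, the exchanger of large neutral amino acids and its heavy chain peaked in CD3_CD28, and the glutamine carriers Slc1a5 and Slc38a1 did not. Slc7a5 (chr8:121881150-121907694, minus strand), the light chain LAT1 that imports leucine, measured 59.4, 57.4 and 58.4 CPM in Unstimulated, 134, 143 and 142 in CD3, 287, 299.8 and 322 in CD3_CD28 and 72.9, 35.8 and 37.9 in CD3_CD28_ICOS libraries. CD3_CD28_ICOS replicate 1 lay above the Unstimulated libraries and the other two below them. Slc7a5 rose by 1.24 ± 0.20 to CD3 (limma adjusted p = 9.24e-05) and by 1.11 ± 0.20 to CD3_CD28 (adjusted p = 0.000367), and was lower in CD3_CD28_ICOS than in CD3_CD28 by -2.68 ± 0.20 (adjusted p = 2.07e-07). Slc3a2 (chr19:8706882-8723369, minus strand), the heavy chain CD98, read 98.0, 92.9 and 104 CPM in Unstimulated, 93.8, 112 and 111 in CD3, 241, 281 and 279.8 in CD3_CD28 and 89.2, 76.4 and 79.3 in CD3_CD28_ICOS libraries. So the heavy chain overlapped between Unstimulated and CD3 (0.10 ± 0.10, adjusted p = 0.389) where the light chain did not. With anti-CD28 it rose by 1.33 ± 0.10 (adjusted p = 3.17e-07).

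Slc7a1, the carrier of arginine and lysine, had means of 128 ± 3.90, 259 ± 7.30, 427 ± 67.9 and 114 ± 26.3 CPM (SD, n = 3) in Unstimulated, CD3, CD3_CD28 and CD3_CD28_ICOS. Slc1a4, a carrier of serine and alanine, had 1.23 ± 0.142, 12.01 ± 1.54, 33.4 ± 6.64 and 3.75 ± 1.75 CPM. They rose by 0.71 ± 0.14 (limma adjusted p = 0.000733) and 1.39 ± 0.23 (adjusted p = 0.000158) from CD3 to CD3_CD28. Slc7a11, the light chain of the cystine importer and a well-known ATF4 target, stayed low, at 1.14, 1.61 and 1.06 CPM in CD3_CD28 and 0.130 to 0.906 CPM elsewhere. It was not tested here, although the authors' deposited table lists a false discovery rate of 0.555 for CD3_CD28 against CD3.

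Slc1a5, the glutamine exchanger ASCT2, measured 98.8, 82.7 and 73.4 CPM in Unstimulated, 181, 207 and 222 in CD3, 98.3, 77.4 and 121 in CD3_CD28 and 101, 97.6 and 111 in CD3_CD28_ICOS libraries. CD3 libraries stood above the other 9. The exchanger gene Slc1a5 rose by 1.25 ± 0.15 to CD3 (limma adjusted p = 4.65e-06) and was lower in CD3_CD28 by -1.05 ± 0.15 (adjusted p = 5.03e-05). Slc38a1 had means of 221, 344, 262 and 291 CPM in Unstimulated, CD3, CD3_CD28 and CD3_CD28_ICOS, and Slc38a2 of 162, 189, 201 and 166 CPM. These carriers import glutamine and other small neutral amino acids with sodium. Slc38a1 was lower in CD3_CD28 than in CD3 by -0.39 ± 0.14 (adjusted p = 0.0242). This call was lost under quantile normalization (-0.30, adjusted p = 0.0647), with median of ratios scaling (-0.18, adjusted p = 0.198), and on leaving out replicate 1 of CD3_CD28 (adjusted p = 0.0903) or replicate 1 (adjusted p = 0.0682) or 3 (adjusted p = 0.0593) of CD3. Slc38a2 was lower in CD3_CD28_ICOS than in CD3_CD28 by -0.27 ± 0.10 (adjusted p = 0.0232). That was not called without CD3_CD28 replicate 1 (adjusted p = 0.0567), CD3_CD28 replicate 3 (adjusted p = 0.0889) or CD3_CD28_ICOS replicate 2 (adjusted p = 0.0948). A fit of the 2 groups alone did not call it either (adjusted p = 0.0552).

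CD3 against Unstimulated compares cells after 72 h on anti-CD3 with fresh cells, without an antibody-free culture between them. Of the 33 tested genes, 26 rose and 1 fell, against 43.6% of all tested genes that rose and 26.3% that fell. The share that rose was 14 of 15 enzymes, 5 of 7 transporters and 7 of 11 stress factors. By median, enzymes changed by 1.66, transporters by 1.01 and stress factors by 0.44 in log2, against 0.18 for all tested genes. The enzyme not called was Aldh1l2, the transporters were Slc3a2 and Slc38a2, and the stress factors were Atf5, Ddit4 and Cebpb. B cell marker sums were higher in CD3, and myeloid and acinar sums lower, than in Unstimulated libraries (365 to 787 against 129 to 227 CPM for B cell markers), and their part was not tested.

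Anti-CD28 added to plate-bound anti-CD3 is tested by CD3_CD28 against CD3. Here 24 genes rose and 4 fell, against 18.7% of all tested genes that rose and 45.7% that fell. The 4 that fell were Shmt1, Mthfd1, Slc1a5 and Slc38a1, and Phgdh, Psph, Shmt2, Mthfd1l and Slc38a2 were not called. All 11 tested stress factors rose, with a median of 1.92, as did 9 of 15 enzymes, with a median of 0.65, and 4 of 7 transporters, with a median of 0.71. Over all tested genes the median was -0.24. Under median of ratios scaling that median was -0.03 and 27 genes of the list rose and 3 fell, and under quantile normalization it was -0.03 with 25 and 3. By 1 log2 unit or more, 19 of the 33 rose, against 4.82% of all tested genes. Among the 26 genes that did not pass the filter through CD3_CD28 alone, 17 rose and 4 fell. By role these were 7 of 7 stress factors that rose, with a median of 1.60, 6 of 12 enzymes, with a median of 0.38, and 4 of 7 transporters, with the median as above. Leaving out CD3_CD28 replicate 1, with its ribosomal RNA, gave 23 and 3, and leaving it out with Unstimulated replicate 3 and CD3_CD28_ICOS replicate 2 gave 25 and 4. B cell markers, 7.92 to 11.8 CPM in CD3_CD28 against 365 to 787 CPM in CD3 in sum, differed in the same comparison, and their part was not tested.

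**Figure D5:**
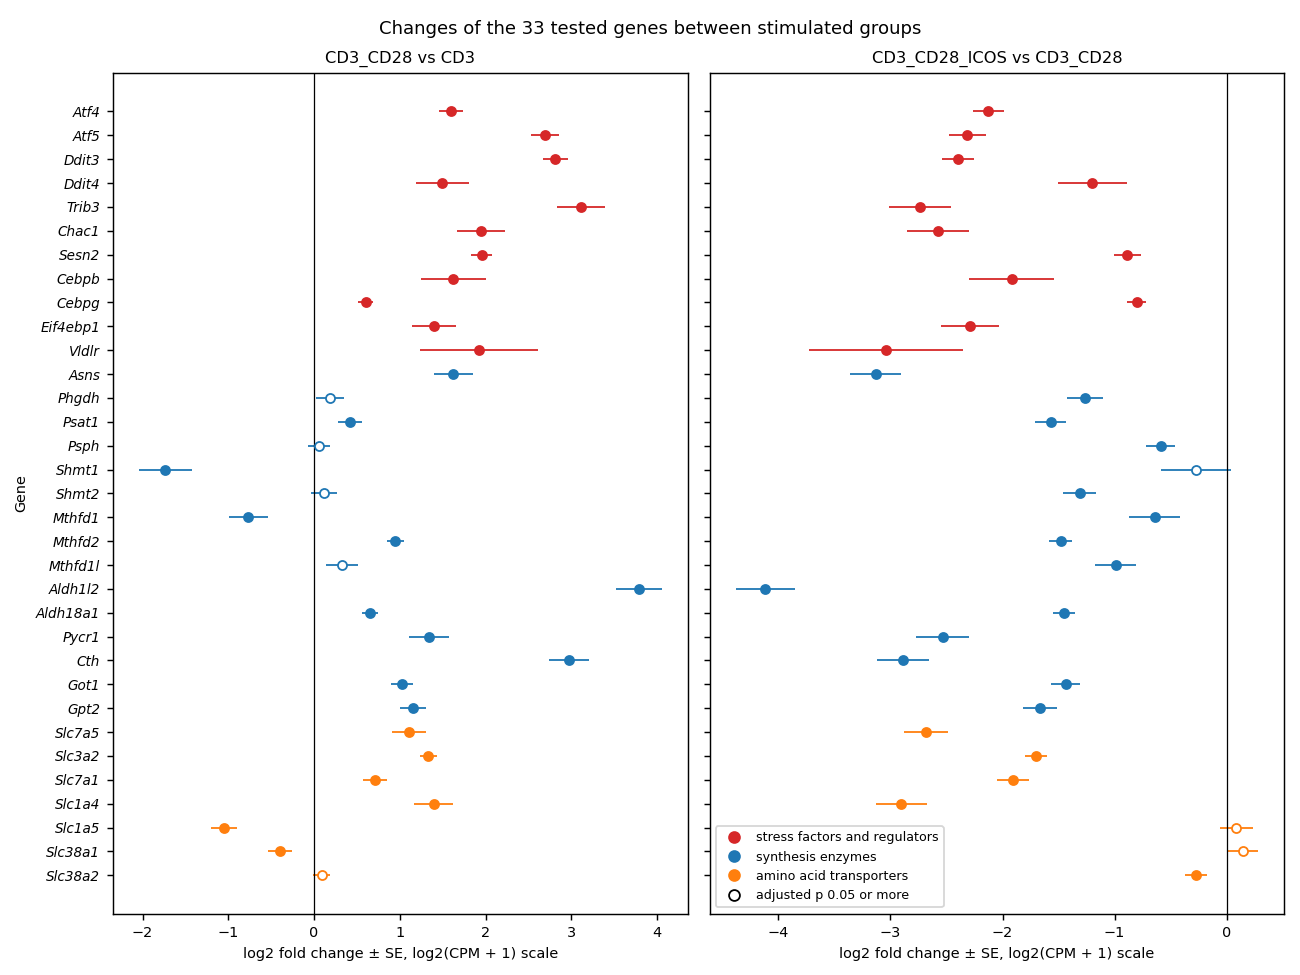
Log2 fold change with its SE for the 33 tested genes, CD3_CD28 against CD3 on the left and CD3_CD28_ICOS against CD3_CD28 on the right, coloured by role, with open circles where the adjusted p is 0.05 or more. On the left 24 genes are called higher and 4 lower, and on the right 30 are called lower and 0 higher. Both panels use the CD3_CD28 libraries, so they are not independent, and Atf5, Trib3, Chac1, Cebpb, Aldh1l2, Pycr1 and Cth passed the filter only through that group.

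In CD3_CD28_ICOS against CD3_CD28, where anti-CD3 was also soluble in place of plate-bound, 30 of the 33 genes fell and 0 rose in the limma test. Of all tested genes, 24.5% fell and 38.5% rose. The 3 not called were Shmt1, Slc1a5 and Slc38a1, which were already lower in CD3_CD28 than in CD3. The authors' deposited table, at a false discovery rate under 0.05, likewise had 28 of the 36 lower and 0 higher. Its counts in the other comparisons were smaller or equal and are given further below. No gene of the list was higher in the limma test at an unadjusted p under 0.05. By 1 log2 unit or more, 24 of the 33 fell, against 6.94% of all tested genes. Median changes were -2.29 for stress factors, -1.45 for enzymes and -1.70 for transporters, against 0.13 for all tested genes. Over the 26 genes that did not pass the filter through CD3_CD28 alone, 23 fell, 17 of them by 1 log2 unit or more, with a median of -1.44. Without CD3_CD28_ICOS replicate 2 there were 28 lower, and with Unstimulated replicate 3 and CD3_CD28 replicate 1 left out as well also 28. Both this comparison and the one before it use the CD3_CD28 libraries, so a gene that is high there moves in opposite directions in them by construction. B cell marker sums were 257 to 707 CPM in CD3_CD28_ICOS against 7.92 to 11.8 CPM in CD3_CD28, and their part was not tested.

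Levels in CD3_CD28_ICOS were also mostly below those in CD3. Against CD3, 20 of the 33 fell and 2 rose, when 28.7% of all tested genes fell and 18.9% rose. The fall was in 13 of 15 enzymes and 5 of 7 transporters, but in 2 of 11 stress factors, Atf4 and Eif4ebp1. The Eif4ebp1 libraries overlapped, and its call (-0.89 ± 0.26, limma adjusted p = 0.0135) was lost without CD3 replicate 2 (-0.77, adjusted p = 0.0585), CD3_CD28_ICOS replicate 1 (-0.65, adjusted p = 0.0534) or replicate 3 (-0.74, adjusted p = 0.0627). The Eif4ebp1 call was also lost in a fit of the 2 groups alone (adjusted p = 0.0520). Against Unstimulated, 18 of the 33 were higher and 2 lower in CD3_CD28_ICOS, when 35.6% of all tested genes were higher and 23.7% lower. Under quantile normalization 11 were higher and 5 lower, and with median of ratios scaling 4 were lower. Asns, at 2.79 ± 0.23 (adjusted p = 3.64e-07), Gpt2, at 1.99 ± 0.15 (adjusted p = 1.03e-07), and Psat1, at 1.48 ± 0.14 (adjusted p = 8.53e-07), were among the higher ones. Atf4 had a value of -0.09 and Ddit3 one of 0.07, neither of them called (adjusted p = 0.587 and 0.692). CD3_CD28 against Unstimulated gave 29 higher and 0 lower of the 33, when 36.1% of all tested genes were higher and 39.1% lower, and no gene of the list was lower there at an unadjusted p under 0.05. Over the 26 genes that did not pass the filter through CD3_CD28 alone, 22 were higher and 0 lower in that comparison. The 6 comparisons share libraries in pairs, so their counts are not independent.

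Replicates spread most in CD3_CD28_ICOS. The median ratio of highest to lowest library over the 33 tested genes was 1.201 in Unstimulated, 1.15 in CD3, 1.19 in CD3_CD28 and 1.55 in CD3_CD28_ICOS. More than a 2-fold range was seen in 12 genes in CD3_CD28_ICOS, 7 in Unstimulated, 2 in CD3 and 0 in CD3_CD28. The filter favoured CD3_CD28 in this count, because 7 genes passed only by being high there. Some of these were low elsewhere, such as Chac1 at 0.317 to 1.68 CPM in CD3_CD28_ICOS. The spread was not compared with that of all tested genes. Replicate 1 of CD3_CD28_ICOS was the highest of its group for 21 of the 36 genes, among them Slc7a5, Asns and Slc1a4, and replicate 2 for 13. Replicate 2 of CD3_CD28_ICOS was above the other two for Trib3, Vldlr, Eif4ebp1, Ddit4 and Mthfd1l and below them for Shmt1 and Mthfd1. Its B cell markers summed to 257 CPM, against 707 and 619 CPM in replicates 1 and 3, and the part of this difference was not tested.

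Genes of neighbouring pathways, taken as 6 lists by their known function, did not share a single direction. Their counts are to be read against the shares of all tested genes, which were 43.6% higher and 26.3% lower with anti-CD3, 18.7% higher and 45.7% lower with anti-CD28, and 38.5% higher and 24.5% lower from CD3_CD28 to CD3_CD28_ICOS. The counts include genes that passed the filter only through the group where they were high, such as Gls2, Slc7a3, Slc43a1 and Rragd. For such genes the filter favoured a call against that group, and counts without them are not given. Among 18 tested genes of eIF2 kinases, eIF2, its exchange factor and phosphatase subunits, which act before ATF4, 10 rose and 3 fell with anti-CD3, 2 rose and 6 fell with anti-CD28, and 5 rose and 6 fell from CD3_CD28 to CD3_CD28_ICOS. The kinase gene Eif2ak4, encoding GCN2, which senses uncharged tRNA, rose by 1.28 ± 0.11 with anti-CD3 (limma adjusted p = 1.32e-07). Ppp1r15a, a phosphatase subunit that ends the response, fell by 2.11 (SE 0.82, adjusted p = 0.0442) from a mean of 281 ± 380 CPM (SD, n = 3) in Unstimulated, an SD larger than the mean. The eIF2 beta subunit gene Eif2s2 rose by 0.72 ± 0.08 with anti-CD28 (adjusted p = 1.03e-05) and fell by 1.02 to CD3_CD28_ICOS (adjusted p = 2.75e-07). Eif2ak2, the kinase PKR that binds double-stranded RNA, fell by 0.86 with anti-CD28 (adjusted p = 0.000113). Eif2ak1, the heme-sensing kinase, rose by 0.74 ± 0.09 to CD3_CD28_ICOS (adjusted p = 5.79e-06).

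The 20 genes of the other branches of the unfolded protein response and of folding helpers of the endoplasmic reticulum moved in both directions. In order of the 3 comparisons, 5 rose and 6 fell, 6 rose and 5 fell, and 4 rose and 9 fell, with medians of 0.0014, 0.09 and -0.33 against 0.18, -0.24 and 0.13 for all tested genes. Xbp1, the factor of the IRE1 branch, had means of 54.4, 106, 264 and 72.3 CPM in Unstimulated, CD3, CD3_CD28 and CD3_CD28_ICOS, and rose by 1.31 ± 0.12 with anti-CD28 (limma adjusted p = 2.15e-06). Atf6, the sensor of the third branch, rose by 1.42 ± 0.13 with anti-CD3 (adjusted p = 2.76e-07), and its relative Atf6b fell by 0.79 with anti-CD28 (adjusted p = 0.000354). Dnajb9, a chaperone partner that passed the filter only through Unstimulated, had a difference of -1.79 with anti-CD3, given without a p-value. The ubiquitin ligase gene Syvn1 rose by 0.87 ± 0.13 from CD3_CD28 to CD3_CD28_ICOS (adjusted p = 6.88e-05).

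Of 18 tested genes of other folate and methionine steps, 10 rose and 3 fell with anti-CD3, 1 rose and 9 fell with anti-CD28, and 4 rose and 5 fell to CD3_CD28_ICOS, so the share that fell with anti-CD28 was close to that of all tested genes. Tyms, the thymidylate synthase of DNA synthesis, had means of 3.12, 37.5, 8.11 and 19.8 CPM in Unstimulated, CD3, CD3_CD28 and CD3_CD28_ICOS, and was lower in CD3_CD28 than in CD3 by -2.08 ± 0.21 (limma adjusted p = 3.06e-06). Like Shmt1 and Mthfd1, Tyms had its highest mean in CD3. Ahcyl2, related to the homocysteine-releasing enzyme Ahcy, rose by 1.65 ± 0.09 with anti-CD28 (adjusted p = 3.61e-08), and Ahcy fell by 0.87 from CD3_CD28 to CD3_CD28_ICOS (adjusted p = 3.51e-05). The mitochondrial folate carrier Slc25a32 fell by 0.88 with anti-CD3 (adjusted p = 5.18e-05).

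Other amino acid enzymes, 13 tested, counted 8 rises and 1 fall, 3 rises and 5 falls, and 2 rises and 5 falls in the 3 comparisons. Bcat1, the cytosolic transaminase of branched-chain amino acids, had means of 2.75, 59.9, 92.2 and 20.2 CPM in Unstimulated, CD3, CD3_CD28 and CD3_CD28_ICOS, and rose by 4.07 ± 0.23 with anti-CD3 (limma adjusted p = 5.57e-09). Gls2, a glutaminase that passed the filter only through CD3_CD28, had 0.138, 7.04, 28.8 and 3.31 CPM, and Glul, which makes glutamine, had 117, 83.2, 46.9 and 85.5 CPM. The 2 enzymes of opposite action on glutamine therefore had opposite orders of groups. Other transporters, 12 tested, counted 7 rises and 3 falls, 2 and 3, and 5 and 5. Slc6a9, a glycine carrier that passed the filter only through CD3_CD28, rose by 2.45 ± 0.23 with anti-CD3 (adjusted p = 3.85e-07). Both means of that comparison were below 10 CPM, at 0.541 in Unstimulated and 7.46 in CD3. Slc7a3, a carrier of cationic amino acids that passed the filter only through CD3_CD28, had a difference of 1.87 ± 0.27 with anti-CD28. Slc43a1, a carrier of large neutral amino acids like Slc7a5, had means of 1.26, 2.94, 1.82 and 17.9 CPM. It passed the filter only through CD3_CD28_ICOS, and its difference from CD3_CD28 to CD3_CD28_ICOS was 2.72 ± 0.30. The lysosomal exporter Slc36a1 fell by 1.09 with anti-CD3 and by 0.98 with anti-CD28 (adjusted p = 2.05e-05 and 9.76e-05).

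Genes that signal amino acids to mTORC1, 31 tested, counted 16 rises and 2 falls with anti-CD3, 4 rises and 16 falls with anti-CD28, and 12 rises and 5 falls to CD3_CD28_ICOS. Sesn1, the sestrin related to Sesn2, had means of 93.0, 136, 35.3 and 193 CPM in Unstimulated, CD3, CD3_CD28 and CD3_CD28_ICOS, so its lowest mean was in CD3_CD28, where Sesn2 had its highest. Sesn1 fell by 1.95 with anti-CD28 (limma adjusted p = 7.83e-06) and rose by 2.46 ± 0.21 to CD3_CD28_ICOS (adjusted p = 6.74e-07). Rragd, a small GTPase that recruits mTORC1 to lysosomes, had means of 4.91, 7.71, 35.2 and 5.60 CPM, with CD3_CD28 the highest. It passed the filter only through CD3_CD28. Wdr59, of the GATOR2 complex, rose by 1.19 ± 0.12 with anti-CD3 (adjusted p = 8.17e-07), and the Ragulator subunit gene Lamtor2 fell by 0.55 (adjusted p = 0.000138).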

How the data were processed

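Gene expression was measured by paired-end RNA sequencing of 12 libraries, 3 per group, with groups and replicate numbers taken from the sample titles. The authors deposited CPM values, reads per 1e6 assigned reads, for 17203 genes, with 1e-04 added to each cell, which was found from the values and removed for the levels printed. The submitters' processing notes name Partek 10, DESeq2 and mm10, used by the authors. The aligner, counting tool, strand setting and read filters were not given in the sources used here. In the authors' deposited table of their own comparisons, p-values adjusted as FDR and log2 ratios of fitted means are given, per the file headers, and both were used only where that table is named. Reads were not recovered as whole numbers (76.1 to 81.1% of low values were whole multiples of a step, within 0.02 of a step), so no test on counts was run, and depth is an estimate from that step. A gene taking a large share of a library lowers all other CPM values there.

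The test covered genes that reached 10 CPM in 3 or more of the 12 libraries. It was run with limma 3.58.1 (R 4.3.3) on log2(CPM + 1), fitting 1 mean per group, a mean-variance trend and robust estimation. P-values are two-sided and Benjamini-Hochberg adjusted over the 9826 genes, separately in each of 6 comparisons. SEs are from limma and SDs are over 3 libraries. The scripts were tested on simulated data. Alternatives covered the pseudocount, the filter, 3 other scalings, the model, a replicate block and leaving out libraries. The 36 genes, their roles, the 6 neighbouring lists and the cell type markers were chosen with earlier results of these data known. All 36 could be named. From each neighbouring list, the gene with the largest called rise and the one with the largest called fall could be named for the step to CD3, for the step from CD3 to CD3_CD28 and for the step from there to CD3_CD28_ICOS. A gene that this rule names is not reported here. Coordinates are GRCm38 (mm10), from the deposited table and GENCODE, in which all 36 genes are protein-coding. Every column of sample values was matched to a label.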

Additional observations from a re-analysis of the deposited data

How the results depend on the processing

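The counts of genes called lower in CD3_CD28_ICOS than in CD3_CD28 (30) and higher in CD3_CD28 than in CD3 (24) stayed within 1.5 times their value under every alternative run, at 28 to 33 and 22 to 27. Small counts moved most. Genes lower in CD3 than in Unstimulated numbered 1, and 2 with a filter of 1 CPM, 2 without a filter, 4 under quantile normalization and 0 to 1 when single libraries were left out. Those lower in CD3_CD28_ICOS than in Unstimulated numbered 2, and 5 under quantile normalization, 4 with median of ratios scaling, 1 in a fit of the 2 groups alone, 0 without Unstimulated replicate 3, CD3_CD28 replicate 1 and CD3_CD28_ICOS replicate 2 together (chosen after seeing the data), and 0 to 4 without single libraries. The 18 genes higher in that comparison were 11 under quantile normalization. The 2 genes higher in CD3_CD28_ICOS than in CD3 were 1 in the 2-group fit, 1 with the same 3 libraries left out and 1 to 2 without single libraries. Atf5 gained a call as higher in that comparison under quantile normalization (0.66, limma adjusted p = 0.00885). It did so with median of ratios scaling as well (0.43, limma adjusted p = 0.0376). The authors' deposited table, over all 36 genes at a false discovery rate under 0.05, had 20 higher and 3 lower for CD3_CD28 against CD3. It had 1 and 14 for CD3_CD28_ICOS against CD3. Against Unstimulated it had 24 and 1 for CD3, 27 and 0 for CD3_CD28, and 13 and 1 for CD3_CD28_ICOS. From CD3 to CD3_CD28 it did not call Gpt2 (0.0601), Chac1 (0.0773), Psat1 (0.110), Vldlr (0.112) or Pycr1 (0.130) higher. Nor was Slc38a1 (0.101) called lower there, while Nupr1, which was not tested here, was called higher.

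Quantile normalization turned the sign of 5 gene values that were called with or without it. From Unstimulated to CD3, Aldh1l2 became -0.75 and Atf5 -0.74, both then called as falls (limma adjusted p = 0.0152 and 0.00265). Trib3 became -0.0039 in that comparison and was no longer called. From Unstimulated to CD3_CD28_ICOS, Atf5 became -0.0826 and Slc1a4 -0.23, neither of them then called. The same scaling turned the sign of 4 values called in neither case, which are among the 33 counted below. The cause was not tested. Of all other gene values under alternatives, 4376 kept their direction and their side of the threshold, 87 lost a call, 53 gained one and 33 changed sign between values that were not called. Scaling moved the median over all tested genes in CD3 against Unstimulated from 0.18 to -0.07 (quantile) and 0.01 (median of ratios), in CD3_CD28 against CD3 from -0.24 to -0.03 and -0.03, and in CD3_CD28_ICOS against CD3_CD28 from 0.13 to 0.00 and -0.01. All-gene calls in CD3_CD28 against CD3 were 1837 higher and 4487 lower as deposited, 2882 and 3109 under quantile normalization and 2909 and 3100 with median of ratios. In CD3 against Unstimulated they were 4280 and 2582, 3119 and 3766, and 3544 and 3466, and in CD3_CD28_ICOS against CD3_CD28 3787 and 2403, 3224 and 3115, and 3083 and 3264.

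Same-numbered replicates of different groups were not treated as pairs in the main fit. Of 18 such pairs, 6 had a correlation of deviations from the group means above 0.1. The correlations ran from -0.0998 to 0.408. Between CD3 and CD3_CD28_ICOS they were 0.408 for replicates 2 and 0.335 for replicates 3. Whether a shared number stands for a shared source or batch is not given by the labels. With a replicate block 17 genes, not 18, were higher in CD3_CD28_ICOS than in Unstimulated, where Shmt2 lost its call (limma adjusted p = 0.0576), and 27, not 26, were higher in CD3 than in Unstimulated, where Slc38a2 gained one (adjusted p = 0.0296). Depth of 11.4 to 37.5 in units of 1e6 reads limits what can be read from Nupr1, Cbs, Slc7a11, Chac1 and other genes near 1 CPM.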

Other observations

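Within CD3_CD28_ICOS, the 3 libraries differed in which genes of the list were high. Vldlr read 45.0 CPM in replicate 2, against 2.74 and 12.3 CPM in replicates 1 and 3, Trib3 19.6 against 7.09 and 8.08 CPM, and Mthfd1l 262 against 138 and 141 CPM. Shmt1 read 10.7 CPM in replicate 2, against 33.7 and 18.7 CPM. Without replicate 2, Vldlr was lower in CD3_CD28_ICOS than in CD3 by -2.02 (limma adjusted p = 0.0023), where with all libraries it was not called (-1.12, adjusted p = 0.212). Without replicate 1, Shmt1 was lower in CD3_CD28_ICOS than in CD3_CD28 by -0.67 (adjusted p = 0.0237), where with all libraries it was not called (-0.27, adjusted p = 0.459).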
